A study of Mus musculus with 2 samples.

Results

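The Zfp genes, mouse zinc finger genes named by Zfp and a number, were compared between renal progenitors cultured with vehicle and with panobinostat. Members were chosen by symbol, Zfp followed by a number with or without further letters and digits, and by their total, at least 500 unique molecular identifiers (UMIs, counts of distinct molecules) over the cells of both libraries together. Of 370 genes with such a symbol among 19394 genes in the matrix, 255 were members and 115 stayed below 500 UMIs. The choice used the total over both libraries and not the difference between them. Members held between 504 and 97950 UMIs, with a median of 1520. Just inside the limit lay Zfp3 (504 UMIs, log2 ratio -0.30), Zfp287 (525 UMIs, 0.83) and Zfp850 (530 UMIs, -0.45). Just outside it lay Zfp975 (496 UMIs, -0.02), Zfp93 (494 UMIs, 0.27) and Zfp874b (489 UMIs, 0.16). Here and throughout, the log2 ratio is that of CPM (UMIs per 1000000 UMIs of the library), as panobinostat over vehicle.

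A zinc finger is a short protein loop held by a zinc ion between cysteine and histidine residues. Most Zfp proteins carry C2H2 fingers, which in many of them read DNA. Many of these also carry a KRAB domain that recruits the corepressor Trim28 (KAP1), and through it Setdb1, HP1 proteins and histone deacetylases. They are best known for silencing transposable elements and imprinted genes. The Zfp36 subfamily shares the name but has CCCH fingers, which bind AU-rich stretches of messenger RNA and promote its decay. Panobinostat is a small-molecule inhibitor of histone deacetylases, and so acts on enzymes that KRAB proteins recruit.

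Both groups were glomerular outgrowths from the kidney cortex of C57Bl/6 mice, 9 weeks old, that carry the transgenes Pax2.rtTA and TetO.Cre with the reporter R26.mT/mG. In these mice the Pax2 promoter drives the inducible activator that turns on Cre, and Cre switches the reporter to GFP, so the sorted GFP-positive cells are the labelled lineage and not every progenitor. The labels give 2 mice for the cultures and do not say how they were divided between the groups. Outgrowths were sorted after 5 days, plated at 80000 cells per well, starved for 16 h and then kept for 48 h in 0.2 µM panobinostat or in DMSO vehicle. The design text states the aim as finding how panobinostat acts on renal progenitors.

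Each treatment had 1 library, so no test between treatments was possible. The effect of treatment and other differences between the libraries cannot be told apart. All intervals below are exact 95% intervals for counting error alone. There were 2854 cells and 90754967 UMIs in the vehicle library, and in the panobinostat library 2281 cells and 104188927 UMIs, with medians of 27924 and 42394 UMIs per cell. By phase scores, 35.6% of vehicle cells and 99.8% of panobinostat cells were called G1, the phase before DNA replication, so 64.4% and 0.175% were called cycling. Of 43 S phase genes 37 were at least 2-fold lower with panobinostat, and of 54 G2/M genes 49. Of all genes with at least 500 UMIs, 10.8% were. The 43 and 54 genes are those that gave the phase scores, so these counts are not separate evidence. The 7 progenitor markers summed to 9179 CPM (vehicle) and 5082 CPM (panobinostat), and Pax2 itself stood at 40.4 and 24.9 CPM. Most of the sum was Krt8 (4587 and 1710 CPM) and Krt18 (3301 and 2295 CPM). Pax8 was near equal (120.2 and 119.9 CPM), and Cd24a differed little (646 and 587 CPM). Vcam1 (14.7 and 5.04 CPM) and Epcam (470 and 340 CPM) were lower with panobinostat. The endothelial, mesangial or fibroblast, and proximal tubule lists each summed to at most 13.7 CPM in either library. Of the endothelial genes, Emcn stood at 6.68 and 0.0864 CPM, and Kdr went the other way, at 0.793 and 2.57 CPM. Pecam1 (0.749 and 0.442 CPM) and Cdh5 (0.815 and 0.0384 CPM) were lower with panobinostat. Of the proximal tubule genes, Lrp2 stood at 0.650 and 11.7 CPM and Aqp1 at 8.24 and 1.95 CPM. The leukocyte list summed to 4.73 and 68.0 CPM. Of that list Cd68, a lysosomal protein gene, took 4.11 and 65.5 CPM, Ptprc (CD45) stood at 0.606 and 1.98 CPM, and Cd52 had 0 UMIs with vehicle. Of the podocyte genes, Synpo stood at 5.86 and 11.8 CPM, Podxl at 3.86 and 7.62 CPM, and Wt1 had 0 UMIs with vehicle. The part of these markers in the results on members was not tested.

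The C2H2 and CCCH finger types are shown in 4 genes at the ends of the ranking. The coding stretches are those of the finger nearest the start of the reading frame. They come from GENCODE M21 transcripts, run from 5′ to 3′, and carry in capitals the codons of the zinc-binding cysteines and histidines. In Zfp101 and Zfp667, KRAB members with 12 and 14 C2H2 fingers in frames of 612 and 609 codons, the stretches cover codons 221 to 241 and 146 to 166. In Zfp36 and Zfp36l1, with 2 CCCH fingers each in frames of 319 and 338 codons, they cover codons 101 to 120 and 120 to 139. The spacing of the capitals differs between the types: a close cysteine pair, a long gap and a histidine pair in C2H2, against 3 cysteines and a single histidine in CCCH.
Zfp101: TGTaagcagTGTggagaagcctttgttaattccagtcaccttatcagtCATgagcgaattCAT
Zfp667: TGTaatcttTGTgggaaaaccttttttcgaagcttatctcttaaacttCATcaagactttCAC
Zfp36: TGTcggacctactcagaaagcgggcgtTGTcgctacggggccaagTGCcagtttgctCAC
Zfp36l1: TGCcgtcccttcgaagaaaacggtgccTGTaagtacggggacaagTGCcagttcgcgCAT

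Most members differed little between the libraries, with a small lean downward in CPM. The median log2 ratio of the 255 members was -0.17, with quartiles of -0.51 and 0.24, against a median of -0.04 and quartiles of -0.52 and 0.49 over all 11163 genes with at least 500 UMIs. Members were below 0 in 157 cases and above 0 in 98, and 153 of them (60.0%) lay within 0.5 of 0, where 49.5% of all genes did. With TMM and DESeq2 factors the members' median was -0.28 and -0.29, against -0.15 and -0.16 for all genes. As UMIs per cell the lean was upward, with 192 members above 0 and 63 below and a median of 0.36, against 0.49 for all genes. Their spread was also narrower, with a standard deviation over genes of 0.65 for members and 1.28 for all genes. Because most members are scarce, with 141 of 255 under 10 CPM in both libraries, the interval of a member reached 0.15 to either side at the median. The histogram of log2 ratios shows the members as a narrow peak left of 0 with few genes in its tails.

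**Figure D1:**
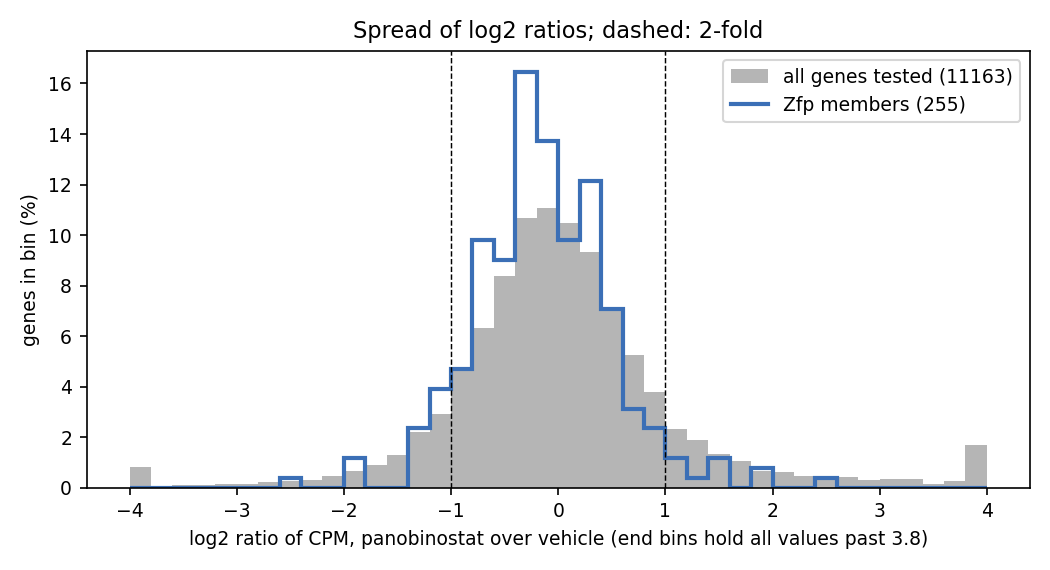
Distribution of log2 ratios of CPM, panobinostat over vehicle, in percent of genes per bin, for all 11163 genes with at least 500 UMIs (grey) and the 255 Zfp members (blue line). The member peak lies left of 0, at a median of -0.17, and the members reach less far than all genes beyond the dashed 2-fold lines.

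Calls of higher or lower needed a ratio of 2-fold or more and an interval without equality, which is a rule of size and no test. By this rule 10 members were higher (3.92%) and 20 were lower (7.84%), where 12.3% of all genes tested were higher and 10.8% lower. Calls in either direction thus reached 11.8% of members and 23.1% of all genes. Among the 8138 genes between 500 UMIs and the 95th percentile of the members' own totals, 14.5% were higher and 11.8% lower. Scaling shifted the split: with TMM factors, which moved the median of all genes by -0.12, 8 members were higher and 28 lower. Thus 22.2% of the members' calls were higher in place of 33.3%. All 11163 genes tested shifted the same way, from 1371 higher and 1203 lower with CPM to 1212 and 1487 with TMM factors. The calls also depended on the limit and the scale. At 1.5-fold, 24 members were higher (9.41%) and 58 lower (22.7%), against 21.8% and 22.4% of all genes. With the interval alone 77 were higher (30.2%) and 132 lower (51.8%), against 43.2% and 47.1%. As UMIs per cell, 33 were higher (12.9%) and 4 lower (1.57%), against 25.3% and 4.83%. Under the 2-fold rule 13 members lay within 0.1 (log2) of the lower limit, on either side, and 5 within 0.1 of the higher one.

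Taken as a sum, the members' share of the transcriptome was nearly the same in the 2 libraries. All 255 summed to 4039 CPM (vehicle) and 4170 CPM (panobinostat), a log2 ratio of 0.05 with an interval of 0.04 to 0.05. This sum rested on Zfp36l1, which held 5.05% of member UMIs with vehicle and 18.3% with panobinostat. Without it the other 254 members summed to 3835 and 3408 CPM, a log2 ratio of -0.17 (interval -0.18 to -0.16). On the scale of UMIs per cell, which is not corrected for the larger cell totals of the panobinostat library, all members summed to 128.4 UMIs with vehicle and 190.5 with panobinostat. With every cell thinned to 18663 UMIs, the median cell held 75 and 77 member UMIs, and 71 and 62 without Zfp36l1. At that depth the median cell showed 52 members with vehicle and 48 with panobinostat, and the unthinned numbers were 70 and 85.

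The CCCH members held the 2 highest ratios of all 255 and split in direction. Zfp36, which encodes tristetraprolin, had 908 UMIs in the vehicle library (10.0 CPM) and 6144 in the panobinostat library (59.0 CPM). It was 5.89-fold higher, a log2 ratio of 2.56 with an interval of 2.46 to 2.66. Zfp36l1, the most abundant member, stood at 203.8 CPM (18494 UMIs) and 762.6 CPM (79456 UMIs), a log2 ratio of 1.90 (interval 1.88 to 1.93). Zfp36l2 went the other way, with 8469 UMIs (93.3 CPM) in the vehicle library and 5209 UMIs in the panobinostat library, 1.87-fold lower in CPM. Its log2 ratio of -0.90 missed the 2-fold limit under CPM and passed it with TMM factors (-1.02) and with DESeq2 size factors (-1.03). It was smaller against vehicle G1 cells (-0.64) and as UMIs per cell (-0.38).

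The higher level of Zfp36l1 was spread over the cells. In cells thinned to 18663 UMIs it had a median of 3 UMIs with vehicle (5th to 95th percentile 0 to 10) and 13 with panobinostat (4 to 26), and at least 1 UMI in 89.0% and 99.5% of cells. Zfp36 was seen in 14.6% (vehicle) and 55.6% (panobinostat) of thinned cells, and in 23.0% and 75.8% of unthinned cells. Zfp36l2 was seen in 63.6% and 42.3% of thinned cells. No cell type lacking these genes was separated in this sorted population, so the share that free RNA alone would give was not measured. Zfp36l1 and Zfp36l2, both abundant, had the highest variance over the mean of thinned UMIs among members, a ratio that can rise with the mean. It was 3.06 and 3.28 for Zfp36l1 and 2.91 and 2.98 for Zfp36l2 (vehicle and panobinostat), against a median of 1.05 and 1.04 over members. The values above 1.5 in other members were 1.98 for Zfp750 with vehicle and 1.80 for Zfp36 with panobinostat.

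**Figure D2:**
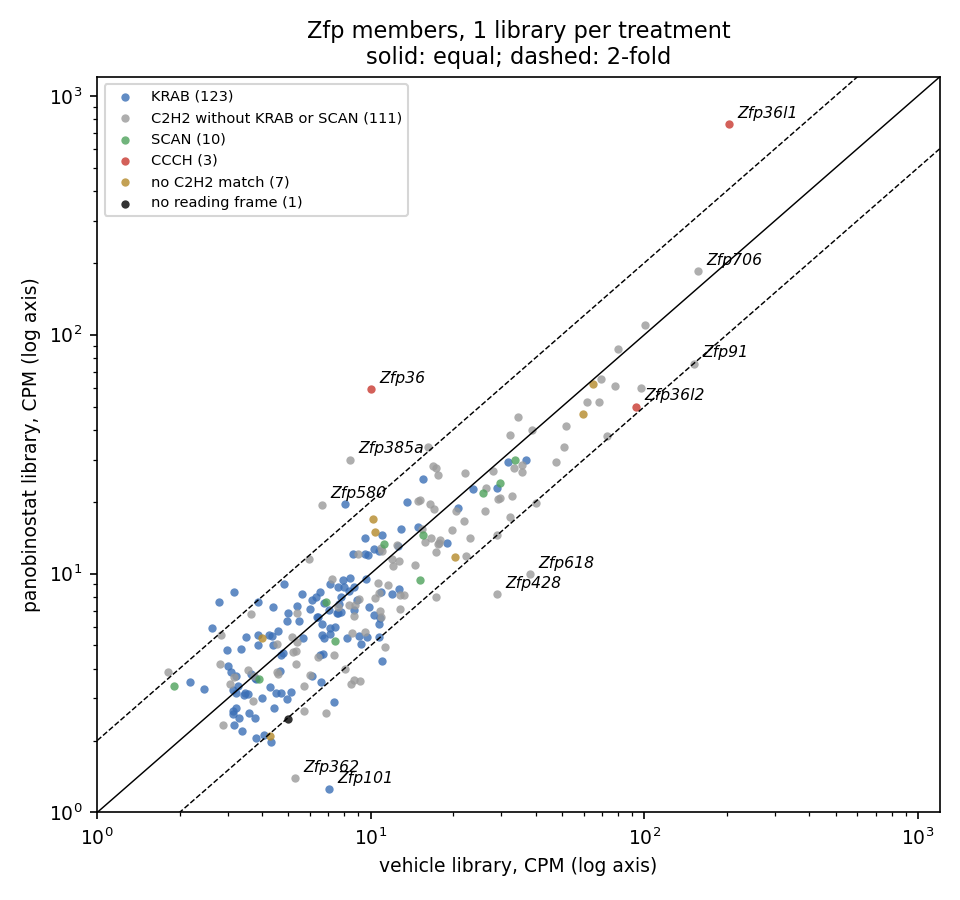
CPM of each of the 255 Zfp members with vehicle (horizontal log axis) and with panobinostat (vertical log axis), 1 library each, coloured by class. The solid line marks equal levels and the dashed lines 2-fold; Zfp36 and Zfp36l1 stand above the upper line, while Zfp618, Zfp428, Zfp362 and Zfp101 stand below the lower one.

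Among members outside the CCCH class, 8 were higher, and they were mostly scarce. Zfp385a, an RNA- and DNA-binding regulator linked to p53, stood at 8.39 CPM (vehicle) and 30.0 CPM (panobinostat), a log2 ratio of 1.84 with an interval of 1.72 to 1.96. It was seen in 13.9% and 40.1% of thinned cells. Zfp580 followed at 6.63 and 19.4 CPM (1.55, interval 1.42 to 1.69). Zfp516, a factor of brown fat genes, stood at 16.2 and 33.7 CPM with a ratio of 1.06 close to the limit, and Zfp691 at 1.81 and 3.88 CPM with a ratio of 1.10. With TMM factors the calls of Zfp516 (0.94) and Zfp691 (0.98) ended.

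The 4 KRAB members that were higher, Zfp667, Zfp931, Zfp612 and Zfp772, had log2 ratios from 1.16 to 1.45. Zfp667 stood at 2.79 and 7.61 CPM, Zfp931 at 3.15 and 8.38 CPM, Zfp612 at 8.05 and 19.6 CPM, and Zfp772 at 2.63 and 5.89 CPM. All 4 were at or under 8.05 CPM with vehicle. The next 2 members by ratio, Zfp13 (0.97) and Zfp775 (0.96), stayed under 2-fold. Both passed the limit after thinning (1.09 and 1.24), Zfp13 also with centring on the median gene (1.0008) and Zfp775 with a mean over cells (1.03).

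The lower end held more members, and the abundant ones among them had no KRAB domain by the score used here. Zfp618, a binding partner of the hydroxymethylcytosine reader Uhrf2, had 3453 UMIs in the vehicle library (38.05 CPM) and 1037 in the panobinostat library (9.95 CPM). Its log2 ratio was -1.93 (interval -2.04 to -1.83), and it was seen in 47.1% and 16.3% of thinned cells. Zfp428 stood at 28.9 and 8.20 CPM (-1.82, interval -1.93 to -1.71), and Zfp362 at 5.30 and 1.39 CPM (-1.93, interval -2.21 to -1.66). Zfp827, Zfp523, Zfp146 and Zfp710 had ratios from -1.39 to -1.19 and were at or under 11.3 CPM with vehicle. The 4 lower members classed KRAB by that score were Zfp101 (7.03 and 1.25 CPM, -2.49), Zfp52 (11.0 and 4.29 CPM, -1.36), Zfp825 (7.34 and 2.89 CPM, -1.34) and Zfp873 (4.31 and 1.98 CPM, -1.12).

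Several calls lay on the 2-fold line itself. Zfp91, an abundant member known as a ubiquitin ligase, stood at 151.7 CPM (vehicle) and 75.7 CPM (panobinostat), a log2 ratio of -1.002 (interval -1.04 to -0.96). Its call ended with the ratios centred on the median gene (-0.97), with a mean over cells of each cell's CPM (-0.99) and after thinning (-0.98). Zfp422, Zfp236 and Zfp469 also passed the limit by about 0.01 or less, and the lowest of these ratios was -1.01. Zfp639 (-1.02), Zfp750 (-1.03), an epidermal differentiation factor, Zfp651 (-1.11) and Zfp746 (-1.11), known as the repressor PARIS, were further below it. The remaining lower member, Zfp367 (9.13 and 3.56 CPM, -1.36), is described with the cell cycle.

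The lowest member, Zfp101, and Zfp367 differed in level between cell cycle phases within the vehicle library. Within the vehicle library, 7 members were at least 2-fold higher in cells called S or G2/M than in cells called G1, or 2.75% of members where 5.96% of all genes were. Zfp101 had 1.80 CPM in G1, 8.48 CPM in S and 10.5 CPM in G2/M cells of the vehicle library, from 56, 190 and 392 UMIs. Zfp367, whose product is known as a cell cycle factor, had 2.38, 16.9 and 10.1 CPM. The panobinostat library, at 1.25 CPM, lay below vehicle G1 cells for Zfp101 and, at 3.56 CPM, above them for Zfp367. Against those cells the log2 ratio of Zfp101 was -0.53 (interval -0.99 to -0.05) in place of -2.49, and that of Zfp367 was 0.58 (interval 0.22 to 0.96) in place of -1.36. The other 5 such members, Zfp41, Zfp395, Zfp850, Zfp934 and Zfp948, were not called over all cells. Against vehicle G1 cells Zfp41 passed the limit (1.35, with 51 UMIs in those cells).

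The members' median was also below that of all genes against vehicle cells called G1. With panobinostat cells set against the 1016 vehicle cells called G1, the members' median was -0.19 and that of all genes 0.01. By the same rule 6 members were higher (2.35%) and 15 lower (5.88%), against 11.3% and 7.24% of all genes. Of these, 5 higher and 15 lower were also called over all cells. Zfp36 (2.35), Zfp36l1 (1.67), Zfp385a (1.58), Zfp580 (1.34) and Zfp931 (1.01) kept their calls upward. Those of Zfp667 (0.97), Zfp612 (0.95), Zfp516 (0.93), Zfp772 (0.90) and Zfp691 (0.87) ended. Zfp618 (-2.18), Zfp362 (-2.02), Zfp428 (-1.66) and Zfp52 (-1.67) kept theirs downward, while those of Zfp91 (-0.72) and Zfp422 (-0.72) ended. Of the 54 G2/M genes, 11 were still lower against vehicle G1 cells (20.4%) and 1 was higher, with a median of -0.41. Of the 43 S phase genes, 6 were lower and 7 higher. These genes gave the phase scores, and whether all cells called G1 were non-cycling was not tested.

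**Figure D3:**
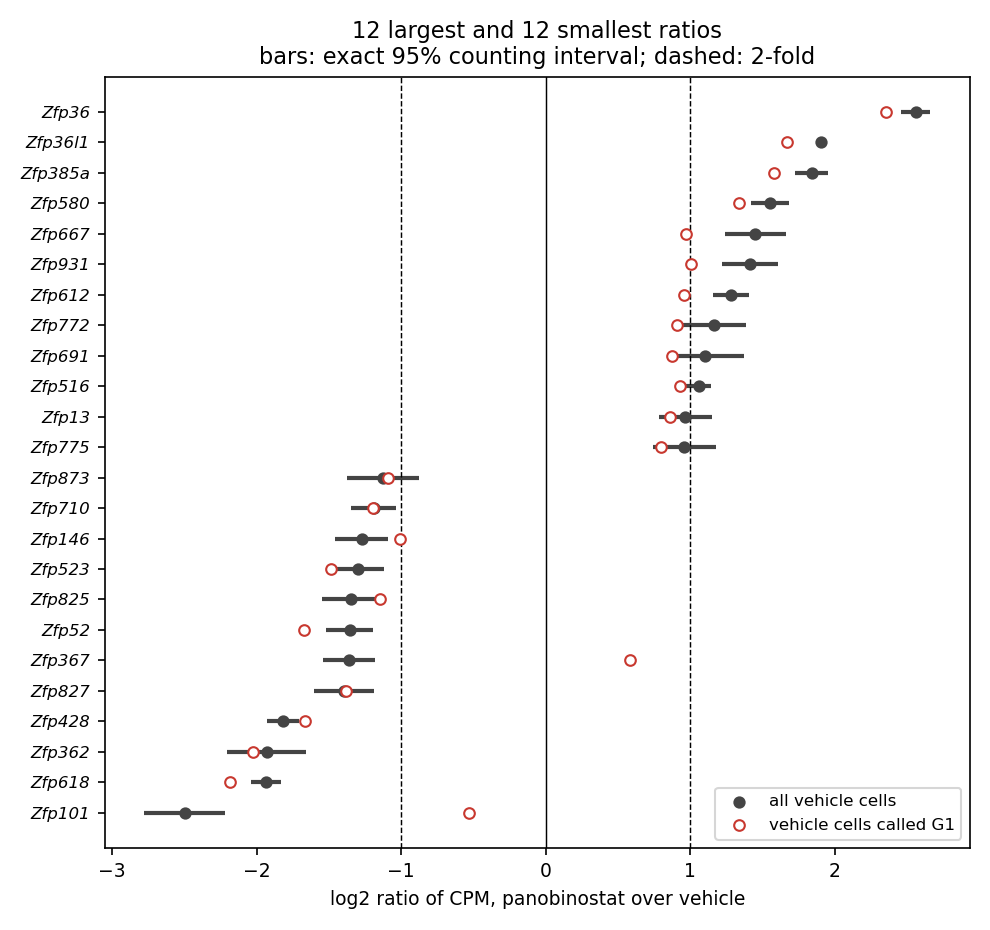
Log2 ratio of CPM, panobinostat over vehicle, of the 12 members with the highest and the 12 with the lowest ratio. Filled points with bars give the ratio over all vehicle cells with its exact 95% counting interval, and open circles the ratio against vehicle cells called G1; Zfp101 and Zfp367 are the members whose open circles lie farthest from their filled points.

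The 2 largest classes, set by finger pattern and domain score and not by DNA binding, lay at different medians, and this difference was not tested. The 123 KRAB members had a median log2 ratio of -0.04, with 4 higher and 4 lower and 67 of 123 below 0. Members with both a KRAB and a SCAN domain were classed SCAN. With those included, 127 members had a KRAB domain by the score, with a median of -0.04 and again 4 higher and 4 lower. The 111 C2H2 members without a KRAB or SCAN domain had a median of -0.28, with 4 higher and 14 lower. Lower calls were thus 3.25% of KRAB members and 12.6% of these C2H2 members, where 10.8% of all genes were lower. These shares depend on members at the limit. Of the C2H2 members, Zfp422 (-1.001), Zfp91 (-1.002), Zfp236 (-1.003) and Zfp639 (-1.02) barely passed it, and Zfp644 (-0.96) fell short. Of the KRAB members, Zfp777 (-0.98) and Zfp472 (-0.94) fell short. Classes follow a score, so members with a divergent KRAB domain can fall among the 111. That may hold for Zfp746 (lower), which lies beside KRAB members on chromosome 6, and was not tested. Against vehicle G1 cells the medians of these classes were -0.14 and -0.26, with 1 higher and 3 lower, and 3 higher and 10 lower (9.01%, where 7.24% of all genes were lower). The KRAB members, which include the silencers of transposable elements, summed to 916.4 CPM (vehicle) and 897.8 CPM (panobinostat), a log2 ratio of -0.03 (interval -0.04 to -0.02).

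The smaller classes rest on few members. The 10 SCAN members, whose domain pairs zinc finger proteins with one another, had a median of -0.15 and 0 calls. The 7 members without a C2H2 match in their reading frame, among them Zfp703, Zfp503 and Zfp365, had a median of -0.06 with 1 call, Zfp750. Zfp469 had no coding reading frame in the annotation and was not classed. By number of fingers the medians were -0.06 for 1 to 3 fingers (27 members), -0.27 for 4 to 9 (82 members) and -0.13 for 10 or more (135 members).

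Members with known targets mostly stayed under 2-fold. Zfp57, which keeps methylation at imprinted genes, stood at 5.99 CPM (vehicle) and 7.08 CPM (panobinostat), a log2 ratio of 0.24. Zfp568, which silences a placental promoter of Igf2, stood at 19.1 and 13.5 CPM (-0.50). Zfp809, which silences murine leukaemia viruses and related endogenous retroviruses, stood at 9.72 and 5.40 CPM (-0.85, interval -1.002 to -0.69), and Zfp932, another repressor of endogenous retroviruses, at 7.49 and 6.86 CPM (-0.13). None of these 4 reached the limit, and Zfp809 came closest to it. Against vehicle G1 cells Zfp57 turned to -0.15.

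Activators and other well-studied members on the list, beside those described above, ran from -0.79 (Zfp503) to 0.74 (Zfp365). The promoter factors Zfp143 (-0.18), Zfp148 (-0.09) and Zfp281 (-0.06) were close to equal in the libraries, and Zfp143 turned to 0.18 against vehicle G1 cells. Zfp207, the spindle protein BuGZ, stood at 97.1 and 59.8 CPM (-0.70). Zfp703 (-0.36), Zfp704 (-0.70) and Zfp503 (-0.79) were lower, under 2-fold. Zfp217, known as an oncogene, was at 0.44 and Zfp462 at -0.26. The abundant members Zfp706 (157.2 and 184.5 CPM, 0.23), Zfp638 (0.13), Zfp106 (0.12) and Zfp664 (-0.35) stayed near 0. The pluripotency gene Zfp42 (0 and 8 UMIs) and Zfp423 (9 and 28 UMIs) were too scarce to be members.

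Many KRAB genes arose by tandem duplication and lie side by side. Each of the clusters of at least 5 members held ratios above and below 0, and smaller clusters were not summarised. With members within 500 kb of one another joined, 80 members lay in 9 clusters of at least 5 (coordinates from GENCODE M21 on GRCm38). Chromosome 7 held 54 members and chromosome 17 held 37. The cluster with the most members, 21 at chr17:21008903-23599487, had a median log2 ratio of -0.16 and ran from -1.36 (Zfp52) to 0.97 (Zfp13). The 11 KRAB members at chr13:67254918-67729173 stayed between -0.68 and 0.53, with a median of 0.04 and 0 calls. Zfp101 lay among 8 members at chr17:32765496-33631779 that had a median of -0.11 with Zfp101 included, and the other 7 ran from -0.94 (Zfp472) to 0.45 (Zfp952). The 6 members that end with Zfp36 at chr7:27731389-28380253 had a median of 0.14. The 7 at chr6:47835661-48623227 had the lowest median of the 9 clusters, -0.61, and ran from Zfp746 (-1.11) to Zfp775 (0.96). Neighbours in a cluster can share near-identical sequence, and the sources used here do not say how reads matching several genes were counted.

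**Figure D4:**
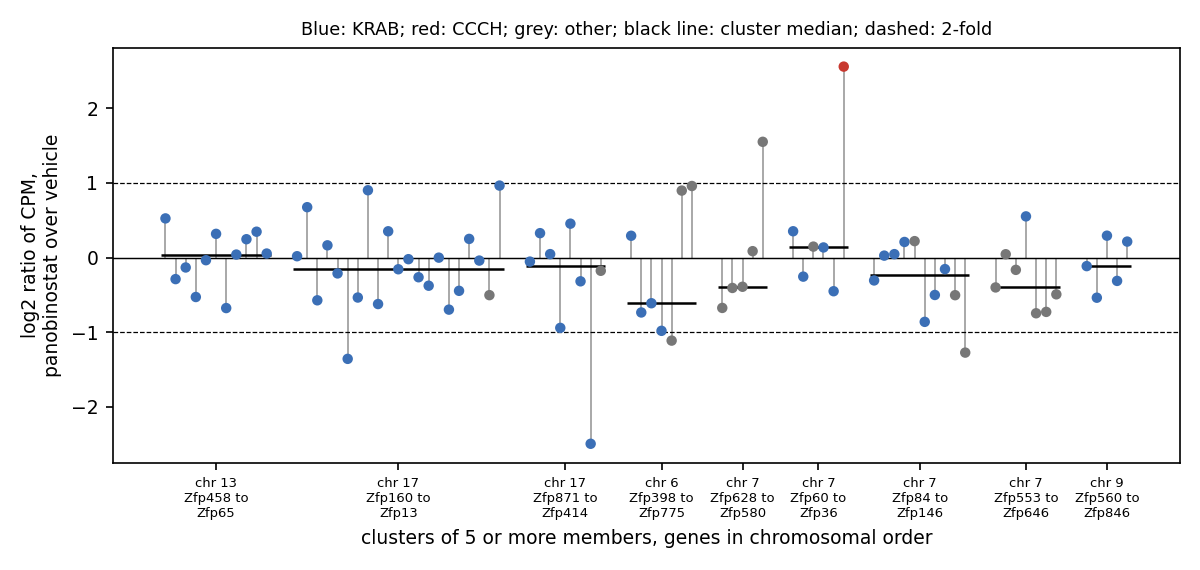
Log2 ratio of CPM, panobinostat over vehicle, of the 80 members in the 9 clusters of at least 5, in chromosomal order (blue, KRAB; red, CCCH; grey, other), with the cluster median as a black line and 2-fold as dashed lines. Within a cluster, members lie on both sides of 0, and cluster medians run from -0.61 to 0.14.

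The exons of 83 members overlap those of another gene, 23 of them on the same strand. Zfp91 shares its strand with Cntf, and Zfp36, Zfp36l1, Zfp36l2 and Zfp428 have an antisense partner. The sources used here do not say whether counting used strand, so reads of such partners could not be separated from those of the member.

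Promoter sequences are shown for the members with the 2 highest and the 2 lowest ratios among those whose 250 bases before the RefSeq start (GRCm38.p6) overlap an annotated exon by no more than 30 bases. Each runs from 5′ to 3′ on the gene's strand, with matches to the motifs searched in capitals. The higher pair is Zfp36l1 at chr12:80113014-80113263 (minus strand) and Zfp385a at chr15:103340087-103340336 (minus strand). The lower pair is Zfp101 at chr17:33394638-33394887 (minus strand) and Zfp618 at chr4:62965317-62965566 (plus strand). The capitals in Zfp36l1 are an AP-1 match and a TATA box that shares a base with a CCAAT box, and those in Zfp385a are a CCAAT box next to a GC box and 2 further GC boxes. Zfp101 has 2 CCAAT boxes, while Zfp618 has 4 GC boxes in a window of 88.8% G and C, against 45.2% for Zfp101.
Zfp36l1: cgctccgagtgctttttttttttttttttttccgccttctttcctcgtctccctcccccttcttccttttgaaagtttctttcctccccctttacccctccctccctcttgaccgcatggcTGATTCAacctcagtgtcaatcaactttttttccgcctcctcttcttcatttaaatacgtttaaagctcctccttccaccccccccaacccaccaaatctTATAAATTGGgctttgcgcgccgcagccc
Zfp385a: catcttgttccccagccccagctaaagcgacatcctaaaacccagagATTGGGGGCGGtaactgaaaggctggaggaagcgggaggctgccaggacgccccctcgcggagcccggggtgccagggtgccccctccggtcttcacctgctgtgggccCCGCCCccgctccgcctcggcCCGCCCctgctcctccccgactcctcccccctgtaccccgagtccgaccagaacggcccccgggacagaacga
Zfp101: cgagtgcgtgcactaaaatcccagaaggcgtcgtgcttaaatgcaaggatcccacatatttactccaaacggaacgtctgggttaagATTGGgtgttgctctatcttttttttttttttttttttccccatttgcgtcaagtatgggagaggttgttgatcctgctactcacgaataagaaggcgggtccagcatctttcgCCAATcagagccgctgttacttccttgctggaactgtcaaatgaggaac
Zfp618: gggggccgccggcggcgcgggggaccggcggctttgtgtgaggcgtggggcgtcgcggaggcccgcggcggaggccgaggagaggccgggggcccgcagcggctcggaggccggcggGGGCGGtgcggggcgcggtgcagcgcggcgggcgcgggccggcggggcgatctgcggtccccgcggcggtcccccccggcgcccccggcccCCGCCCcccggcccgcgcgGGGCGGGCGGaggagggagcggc

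The members' promoters held more CpG pairs and fewer TATA boxes than RefSeq promoters taken without a floor on UMIs, as a description with no test. RefSeq windows of 300 bases, 250 before and 50 after the start, were matched for 206 of 255 members and set beside all 32851 such windows, which can hold several per gene. For each member the RefSeq start nearest the gene's annotated 5′ end was taken, with no limit on distance. Most lay close to that end. That of Zfp36, a higher member, lay 1025 bases from it, inside the gene, and that of Zfp638 lay 47244 bases from it. The motifs were searched on both strands, overlapping matches included. Members held a median of 15 CpG pairs, all windows 7. The GC box (GGGCGG), known as the site of Sp and Klf factors, was in 48.5% of member windows and 35.7% of all. The CCAAT box (CCAAT) was in 47.6% and 37.4%, and the TATA box (TATAAA) in 7.28% and 13.6%. The AP-1 motif (TGANTCA) was in 3.88% and 7.81%, the E-box (CACGTG) in 7.28% and 7.15%, the CRE (TGACGTCA) in 3.40% and 1.79%, and the CArG box in 1.46% and 1.63%. The core of the site read by Zfp143 itself (ACTACAANT) was in 4.85% and 1.49%, and part of the NRF1 motif (GCGCATGCG) in 4.85% and 1.75%. Of the called members with a window, 5 of 8 higher and 7 of 16 lower held a GC box, and 5 of 8 and 7 of 16 a CCAAT box. With windows this few, the 2 directions could not be told apart by these letters.

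The corepressor genes that KRAB proteins work through were also counted. Of 38 genes of this machinery, all with at least 500 UMIs, 0 were higher and 9 lower (23.7%, where 10.8% of all genes were lower), and their median log2 ratio was -0.30. Chd3, a helicase of the NuRD deacetylase complex, stood at 114.2 CPM (vehicle) and 15.9 CPM (panobinostat), a log2 ratio of -2.85, and -2.77 against vehicle G1 cells. Trim28 stood at 124.0 and 53.3 CPM (-1.22), and at -0.81 against vehicle G1 cells. Uhrf1 (-2.65) and Suv39h2 (-1.77) were near equal or under 2-fold against those cells (0.11 and -0.43). Of the 38, 3 were lower against those cells (7.89%, near the 7.24% of all genes), and the median was -0.09. Uhrf1 is among the S phase genes, and Cbx5 of the 38 among the G2/M genes, that called the phases. Their values against G1 cells therefore follow in part from how those cells were chosen. Setdb1 (-0.15), Hdac1 (-0.04) and Hdac2 (-0.22), the deacetylases among them being targets of the drug, stayed close to 0.

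Other zinc finger families had medians on either side of 0. Of 47 tested Zbtb, Zscan and Zkscan genes, 3 were higher and 5 lower with a median of -0.10, from Zbtb46 (2.62) to Zbtb12 (-1.97). Of 17 Klf and Sp genes, 2 were higher, Klf2 (3.61) and Klf12 (1.36), and 0 were lower, with a median of 0.04. The 18 genes with other Zf symbols had a median of 0.34, with 1 higher, Zfpm2 (1.30), and 0 lower. These are counts beside the background shares given above, and no difference between the families was tested.

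Zfp genes under 500 UMIs, named after their values were seen, included wider ratios. Of these 115 genes 17 were higher (14.8%) and 10 lower (8.70%) by the same rule. Of all genes from 1 UMI to under 500 UMIs, 33.5% were higher and 7.93% lower. Zfp811 had 13 UMIs with vehicle and 155 with panobinostat, a log2 ratio of 3.38, and Zfp536 had 32 and 305 UMIs (3.05). At the other end Zfp764 had 241 and 31 UMIs (-3.16). With these genes included, 27 of 370 Zfp genes were higher (7.30%) and 30 lower (8.11%), against 21.3% and 9.57% of all 19394 genes.

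A UMI of a typical member was seen in few cells. The median member was seen in 14.3% of vehicle and 13.1% of panobinostat cells thinned to 18663 UMIs, and in 22.2% and 27.7% of unthinned cells. The order of the libraries thus depended on depth, and no order was read from the shares. For a member such as Zfp101, with 130 UMIs in 2281 panobinostat cells, the interval of its log2 ratio ran from -2.78 to -2.22.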

How the data were processed

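The deposited matrix holds raw UMI counts per gene and cell, with no normalization by the authors, for 2 droplet single-cell 3′ libraries of sorted mouse cells, 1 per treatment, per the labels' protocols. Cell Ranger 3.0.1 and the build mm10 are named in the submitters' processing notes. The annotation, the filters on cells, the treatment of doublets and the use of strand are not given in the sources used here. Deposited cells had at most 9.98% mitochondrial UMIs, 0 barcodes occurred in both libraries, and no cell was removed and no doublet caller was run here.

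Counts were summed over the cells of a library and scaled to CPM. Log2 ratios have exact conditional binomial (Clopper-Pearson) 95% intervals, and a call needs 2-fold and an interval that excludes equality, among genes with at least 500 UMIs. Cells are not replicates, so no p-value was computed. Phases were scored with scanpy 1.11.5, and 271 vehicle and 49 panobinostat cells lay within 0.05 of a phase limit. Shares of cells were taken after thinning each cell to 18663 UMIs, so that 453 vehicle cells and 60 panobinostat cells below it were not used. The code was tested on simulated counts.

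With no protein table at hand, classes came from the longest reading frame of GENCODE M21 coding transcripts, a choice made after the plan to class by name alone. C2H2 fingers were counted by pattern, and KRAB and SCAN by a position score built from 83 and 9 seed genes, with limits of 10 and 50. A KRAB domain that is cut short by the annotated frame, or unlike those of the seed genes, can be missed. The 3 CCCH members were set by name.

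Named members are the 12 highest and 12 lowest by ratio, the 8 with the most UMIs, the 3 on each side of 500 UMIs, and a list of well-studied members. In other lists up to 4 genes with the largest absolute ratio are named. Further names, such as the other called members, ends of clusters, genes of the cell cycle and genes below 500 UMIs, were chosen after their values were seen. Values of some marker genes are not reported here. The members and lists were chosen with earlier results of these data known. Alternatives were TMM factors (edgeR 4.0.16), DESeq2 1.42.0 size factors, centring on the median gene, UMIs per cell, a mean over cells, thinning, G1 cells, and other floors and folds.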

Additional observations from a re-analysis of the deposited data

How the results depend on the processing

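The summed log2 ratio of all members, 0.05 over all cells, depended on the scaling: -0.0704 with TMM factors, -0.08 with DESeq2 size factors, 0.0817 centred on the median gene, 0.57 as UMIs per cell and 0.028 after thinning. It was 0.0534 with G1 cells of the vehicle library, 0.0541 with G1 cells of both libraries, 0.0634 with a floor of 1000 UMIs, 0.0812 with a floor of 10 CPM and -0.17 without Zfp36l1, an alternative chosen after seeing the data. The counts of members at least 2-fold apart, 10 higher and 20 lower, became 33 higher and 4 lower as UMIs per cell. With G1 cells, in the vehicle library or in both, 6 were higher. A floor of 10 CPM gave 6 higher and 8 lower, a floor of 1000 UMIs gave 12 lower, and no floor gave 27 higher. A 1.5-fold limit gave 24 and 58 and any fold 77 and 132. TMM and DESeq2 factors each gave 8 higher and 28 lower members, and centring gave 11 and 14. Over all genes the calls were 1371 higher and 1203 lower with CPM, and 1212 and 1487 with TMM factors. The members' median of -0.17 became 0.36 as UMIs per cell. Zfp367 turned to 0.58 with G1 cells of the vehicle library and with G1 cells of both. Among named members without a call, Zfp57 (-0.15), Zfp143 (0.18) and Zfp850 (0.25) also changed sign against G1 cells of the vehicle library. The unthinned shares of cells with a UMI were 22.2% and 27.7%. No paired analysis was possible because each treatment has 1 library and the labels give no replicate numbers. The cause of these differences was not tested beyond what each setting changes by construction. Depth limits the scarce members, with 141 of 255 under 10 CPM in both libraries. For the median member, a ratio within about 0.15 (log2) of 0 could not be told from 0. The call rule set the interval against 0 only, so calls that close to the 2-fold line rest on the ratio alone.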
